A study of Mus musculus with 7 samples.

Results

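The genes for mouse olfactory receptors (Olfr) and for vomeronasal receptors of type 1 (Vmn1r) and type 2 (Vmn2r) were read as a set that is not expected to be active in dendritic cells. Members were the regions of the deposited ChIP-seq table whose assigned gene carries one of these 3 names followed by a number and whose distance to the transcription start site (TSS) is at most 100 kb. There were 316 such regions of 93611 in all, assigned to 170 genes. Of these, 245 regions belonged to Olfr genes, 21 to Vmn1r genes and 50 to Vmn2r genes. At any distance there were 330 regions with these names, so the limit left out 14. The members nearest to the limit were assigned to Vmn2r120 (88524 bp) and Vmn2r25 (-84990 bp), with 3.70 and 3.01 RPKM of RelB signal in WT at 1 h. The nearest regions beyond it were assigned to Olfr164 (100856 bp) and Olfr267 (103619 bp), with 4.90 and 5.18 RPKM.

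Chromatin immunoprecipitation (ChIP) of RelA and RelB, DNA-binding subunits of the transcription factor NF-kB, was carried out in bone marrow-derived dendritic cells (BMDCs) of C57BL/6 mice. The cells had been grown from marrow with the cytokines GM-CSF (20 ng/ml) and IL-4 (10 ng/ml), and were crosslinked with DSG at 1.0 mM and PFA at 1.0%. The groups were RelBko cells with RelA ChIP 1 h after lipopolysaccharide (LPS, 10 ng/mL), WT cells with RelA ChIP at the same time, RelBko and WT cells with RelB ChIP 1 h after LPS, and both genotypes with RelB ChIP without stimulation (0 h). The seventh group was an input sample of unprecipitated WT DNA with no time or treatment in its labels. Each of the 7 groups held 1 library, so no difference could be set against a spread between replicates, no p-value is given, and every count is read beside the same count over all regions. The labels do not say how the RelB gene was inactivated, from how many animals the marrow came, or whether it was pooled. The treatment text gives a CpG oligonucleotide as the reagent beside LPS; LPS, the name in the titles, is used below.

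Olfactory receptors are G protein-coupled receptors of olfactory sensory neurons, each of which chooses 1 receptor allele from the whole repertoire, while the other receptor genes are kept in compact, repressed chromatin. Vmn1r and Vmn2r genes encode the receptors of vomeronasal sensory neurons, which read pheromones and signals from other animals; type 1 receptors are found in neurons with the G protein subunit Gnai2, and type 2 receptors, which have a large extracellular domain, in neurons with Gnao1. All 3 families lie in clusters of closely related copies on many chromosomes. NF-kB subunits bind short GC-flanked sites that begin with GGG and end with CC, and most of their known targets are immune and inflammatory genes.

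The regions are in build mm9, and their own sequences are not analysed here; promoter windows were taken from RefSeq in build GRCm38.p6, in which a start may lie elsewhere than in mm9. Windows running from 250 bases before to 50 after a gene's start were found for 151 of the 170 genes, some with more than 1. The motif GGG, any 5 bases (N), then CC, searched on both strands with overlapping matches counted, was present in 26 of the 153 windows of these genes (17.0%), in 164 of 1270 windows of all receptor genes (12.9%) and in 16686 of all 32851 windows (50.8%). The receptor windows were also poorer in G and C, with a median of 38.7% for genes with a member region and 35.7% for all receptor genes, against 52.7% for all windows; the part of base composition in the motif count was not tested. The 250 bases before the start are shown for 4 genes whose windows a member region overlapped: Olfr175-ps1 and Olfr110, with the strongest promoter regions, Olfr460, which has a region over its start and 2 of the strongest regions farther along, and Olfr701, whose region covered the whole stretch. Capitals mark matches to the motif, and in Olfr701 2 matches, 1 on each strand, overlap within a run of 11 bases.
Olfr175-ps1: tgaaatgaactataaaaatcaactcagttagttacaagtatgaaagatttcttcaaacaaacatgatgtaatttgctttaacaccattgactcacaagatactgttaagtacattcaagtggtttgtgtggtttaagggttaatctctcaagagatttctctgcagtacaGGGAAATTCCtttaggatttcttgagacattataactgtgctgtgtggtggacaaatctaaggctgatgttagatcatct
Olfr110: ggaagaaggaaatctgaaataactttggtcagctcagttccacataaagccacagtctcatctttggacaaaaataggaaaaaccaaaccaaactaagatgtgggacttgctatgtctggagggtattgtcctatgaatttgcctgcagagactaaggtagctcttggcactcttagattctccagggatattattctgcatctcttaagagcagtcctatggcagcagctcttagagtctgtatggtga
Olfr460: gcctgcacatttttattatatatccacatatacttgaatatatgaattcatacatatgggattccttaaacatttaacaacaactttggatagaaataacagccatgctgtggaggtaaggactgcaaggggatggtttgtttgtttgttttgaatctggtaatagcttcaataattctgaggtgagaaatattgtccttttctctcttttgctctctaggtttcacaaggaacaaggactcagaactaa
Olfr701: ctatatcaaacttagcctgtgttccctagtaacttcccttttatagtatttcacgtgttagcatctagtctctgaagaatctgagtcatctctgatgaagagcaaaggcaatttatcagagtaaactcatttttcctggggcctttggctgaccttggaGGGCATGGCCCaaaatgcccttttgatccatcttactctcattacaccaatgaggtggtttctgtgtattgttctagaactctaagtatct

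In GRCm38.p6 these stretches lie at chr16:58826762-58827011 (minus strand), chr17:37492218-37492467 (plus), chr6:40571138-40571387 (plus) and chr7:106813879-106814128 (plus). By the deposited distances, the region of Olfr175-ps1 ran from -552 to -202 bp of the start and covered 49 of the bases shown, so the match at -80 lay outside it. The region of Olfr110 (-536 to -198 bp) covered 53 of the bases, and that of Olfr460 (-157 to 211 bp) covered 157. The region of Olfr701 (-281 to 33 bp) held both of its matches, the first at -91, with 3.19 RPKM of RelA signal in RelBko and 3.08 in WT, 5.27 RPKM of RelB signal in WT at 1 h and an input of 0.966 RPKM. A match is a description of the letters and does not show a bound site.

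Values are RPKM, reads divided by region length in kilobases and by library size, as deposited by the authors. Reads recovered from these values gave totals of 17485035 to 35064429 for the ChIP libraries and 13188833 for the input, of which the members held 2325 to 28274 in ChIP and 1253 in the input. The median member held 6 and 7 reads in the RelBko RelB libraries, 21 to 44 in the other ChIP libraries and 4 in the input, so single weak regions are known only roughly. Near-identical receptor copies can share reads, and how such reads were placed is not given in the sources used here. In RelBko cells the RelB ChIP is a background measure: at the promoter of Relb itself (57 bp before the start) it gave 4.18 RPKM at 1 h, against 49.3 in WT, and 11.9 RPKM at 0 h, against 104 in WT. The region still held 643 reads of RelA ChIP in RelBko, so it does not show the deletion.

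Members carried less signal than the rest of the regions in all 7 libraries, the input included. The median member had 3.04 RPKM of RelA signal in RelBko and 3.32 RPKM in WT, where the median of all regions was 5.43 and 5.89 RPKM. RelB signal at 1 h had a median of 0.833 RPKM in RelBko and 3.93 RPKM in WT, against 1.06 and 6.28 RPKM over all regions. At 0 h the members' median was 1.11 RPKM in RelBko and 3.38 RPKM in WT, against 1.49 and 5.46 RPKM over all regions. In the input the members were at 0.739 RPKM and all regions at 0.903 RPKM. Lower levels were thus also found without an antibody, and their part in the lower ChIP signal was not tested. As a ratio of pooled signal, members were at 0.61 of all regions for RelA in RelBko and 0.62 in WT, 0.79 for RelB at 1 h in RelBko and 0.65 in WT, 0.67 for RelB at 0 h in RelBko and 0.64 in WT, and 0.82 in the input.

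**Figure D1:**
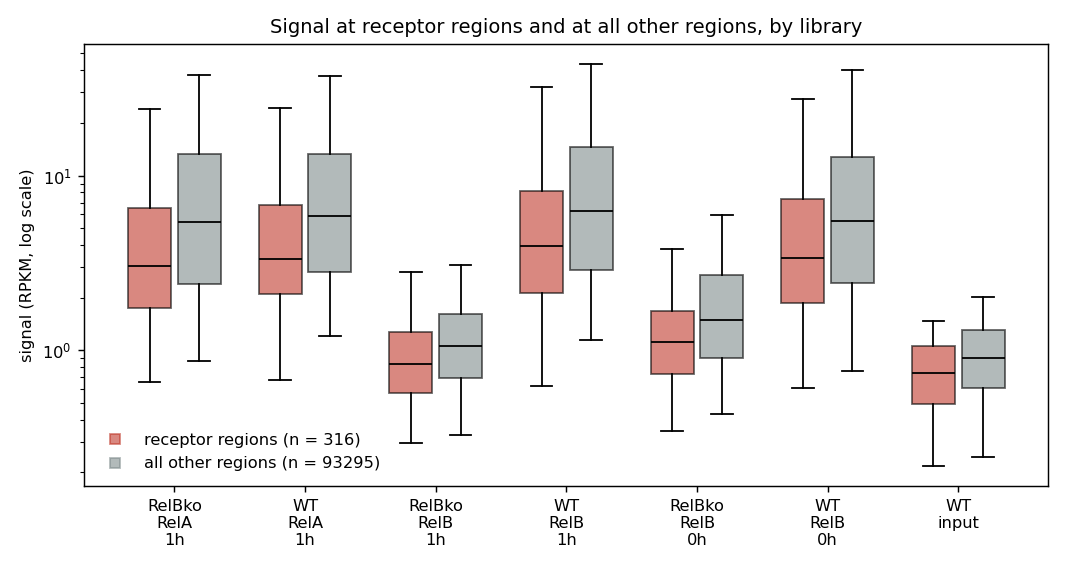
Signal in RPKM (log axis) at the 316 receptor regions (red, left of each pair) and at all 93295 other regions (grey), by library. Boxes span the quartiles with the median as a line, and whiskers run from the 5th to the 95th percentile; the receptor median is the lower one of each pair, and the RelBko RelB libraries sit near the input.

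Many of the members passed a rule for ChIP signal above the input, though less often than all regions. A region was called enriched where it reached 2 RPKM and 2-fold over the input after 0.5 RPKM had been added to both. This held for 199 members (63.0%) with RelA in RelBko and 223 (70.6%) with RelA in WT, against 75.9% and 82% of all regions. With RelB at 1 h it held for 17 members (5.38%) in RelBko and 231 (73.1%) in WT, against 6.36% and 81.7% of all regions. With RelB at 0 h it held for 37 (11.7%) in RelBko and 215 (68.0%) in WT, against 24.1% and 75.9%. Every share of members lay below that of all regions. In percentage points the shares were closest for RelB at 1 h in RelBko, where both were low. Among the members, 170 were enriched in all 3 WT ChIP libraries (53.8%, against 65.7% of all regions), and 21 in no ChIP library (6.65%, against 3.88%). Members were drawn from the deposited regions, of which 96.1% were enriched in at least 1 ChIP library (93.4% of members). High shares are thus largely given by which regions were deposited. They do not show how often receptor loci at large carry signal.

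The strength of members was uneven. Signal of 10 RPKM or more was found at 56 members with RelA in RelBko and 54 in WT, at none with RelB at 1 h in RelBko and 61 in WT, and at none with RelB at 0 h in RelBko and 55 in WT. For RelA in WT this is 17.1% of the members, against 33.4% of all regions. The 10 strongest members, 3.16% of the set, held 21.4% of the members' reads with RelA in RelBko, 19.6% with RelA in WT, 20.4% with RelB in WT at either time, 8.26% with RelB in RelBko at 1 h and 11.9% at 0 h, and 4.15% in the input. These 10 were chosen by their mean over the ChIP libraries, which include every library but the input, so their high ChIP shares follow from that choice.

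By receptor family the levels were close. RelA signal had medians of 2.93 RPKM in RelBko and 3.20 in WT at Olfr regions, 3.31 and 3.67 at Vmn1r regions, and 3.86 and 3.70 at Vmn2r regions. RelB signal in WT had medians of 3.92 RPKM at 1 h and 3.40 at 0 h at Olfr regions, 4.58 and 4.53 at Vmn1r regions, and 4.13 and 3.26 at Vmn2r regions. Among other gene families with special tissues, taste and trace amine receptors and beta defensins, antimicrobial peptides of epithelia, were in the same range. The 36 regions of the former had 3.38 RPKM of RelA signal in RelBko and 3.74 in WT, and the 19 of the latter had 2.76 and 3.68. Lower medians were found at keratin-associated protein genes, which build hair, with 4 regions at 1.56 and 2.27 RPKM. The prolactin family of pituitary and placenta was also lower, with 4 regions at 0.859 and 1.18 RPKM.

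Most members lay between genes. In the deposited annotation 253 of 316 were intergenic (80.1%, against 39.2% of all regions), 32 lay in introns (10.1%, against 44.1%) and 13 in promoters (4.11%, against 11.0%), and the others were 8 in exons, 8 at transcription ends, 1 in a 3' UTR and 1 in a non-coding gene. The median length was 356 bp, against 361 bp over all regions. The median distance to the start was 9766.5 bp. The median of 18369 bp over all regions is not like for like. Members were limited to 100 kb, while all regions reached 2012635 bp. The 29788 other intergenic regions within 100 kb had medians of 4.88 RPKM with RelA in RelBko, 5.43 with RelA in WT and 0.889 in the input, so that members were weaker than intergenic regions as well. Of the 25 members within 1 kb of the start, 80.0% were enriched with RelA in WT, and their median was 2.89 RPKM, against 95.2% and 11.7 RPKM at the 14711 other regions within 1 kb. From 10 to 50 kb, 76.9% of 117 members were enriched, with a median of 3.97 RPKM, against 79.9% and 5.01 RPKM at 35782 other regions. The 13 members annotated as promoters had a median of 3.88 RPKM with RelA in WT and 12 of them were enriched (92.3%), while the 253 intergenic members had 3.36 RPKM and 69.6% enriched.

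Few receptor genes had a region at all. Of 1463 protein-coding receptor genes in the RefSeq table of GRCm38, used for names and order, 169 had a member region (11.6%), against 15396 of 20437 other protein-coding genes (75.3%). The other member gene, Olfr1372-ps1, is listed there as a pseudogene. The 169 were 135 of 1110 Olfr genes (12.2%), 12 of 230 Vmn1r genes (5.22%) and 22 of 123 Vmn2r genes (17.9%). Taste and trace amine receptor genes had regions at 18 of 53 (34.0%), beta defensin genes at 11 of 42 (26.2%), keratin-associated protein genes at 4 of 56 (7.14%) and prolactin family genes at 2 of 25. A region is assigned to 1 gene, so genes in tight clusters have less sequence around them that could be assigned to them; this was not adjusted for. Of all 170 member genes, 101 had 1 region. The genes with the most were Olfr266 with 10 and Olfr267, Olfr412 and Olfr521 with 7 each, and Olfr266 and Olfr267 each stand alone between non-receptor genes: Cd53, a tetraspanin of leukocytes, and Kcna3, a potassium channel of lymphocytes, flank Olfr266, and Lpar1, a lysophosphatidic acid receptor, and Ecpas flank Olfr267.

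Receptor genes at the edge of their clusters had regions more often than those inside. Among 1787 receptor genes and pseudogenes placed in the gene order, 316 had a protein-coding gene of another kind directly beside them, and 72 of these had a member region (22.8%). Of the 1471 with receptor genes on both sides, 98 had one (6.66%). The 72 edge genes held 163 regions and the 98 inner genes 153. The median RelA signal was 3.23 RPKM in RelBko and 3.67 in WT at edge genes, and 2.74 in RelBko and 3.05 in WT at inner genes. RelB signal in WT was 4.66 RPKM at 1 h and 3.89 at 0 h at edge genes, and 3.01 and 3.09 at inner genes. The input was 0.811 RPKM at edge genes and 0.729 at inner genes. This grouping was chosen after values had been seen. An edge gene can also be assigned regions in the gap to its neighbour of another kind. Olfr266, for example, held 10 regions from -69511 to 13072 bp. The shares were not adjusted for the length of sequence that could be assigned to a gene.

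Regions with gaps of at most 1 Mb formed 60 clusters on 17 chromosomes, of which 17 held 1 region and 27 held 5 or more. The 5 largest held 82 regions: chr14:50681721-53185681 with 22 regions of 12 genes, chr19:11898913-13004687 with 20, chr17:37207090-37853316 with 15, chr7:110860736-112154614 with 13 and chr9:37590662-38628271 with 12, all in mm9 and counted from 1. In this order, the spans also held 146, 43, 7, 31 and 5 regions that are not members, so they are not made up of receptor genes alone. Cluster medians are over members only. Size and signal did not go together: with RelA in WT the cluster on chromosome 14 had a median of 4.99 RPKM, that on chromosome 19 had 2.90, that on chromosome 17 had 5.64, that on chromosome 7 had 2.28 and that on chromosome 9 had 3.34. The highest median among clusters of 5 or more was that of 10 regions on chromosome 1 (17.9 RPKM), the next that of 6 regions on chromosome 16 (15.1 RPKM), and the lowest that of 7 regions on chromosome 6 (2.11 RPKM).

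**Figure D2:**
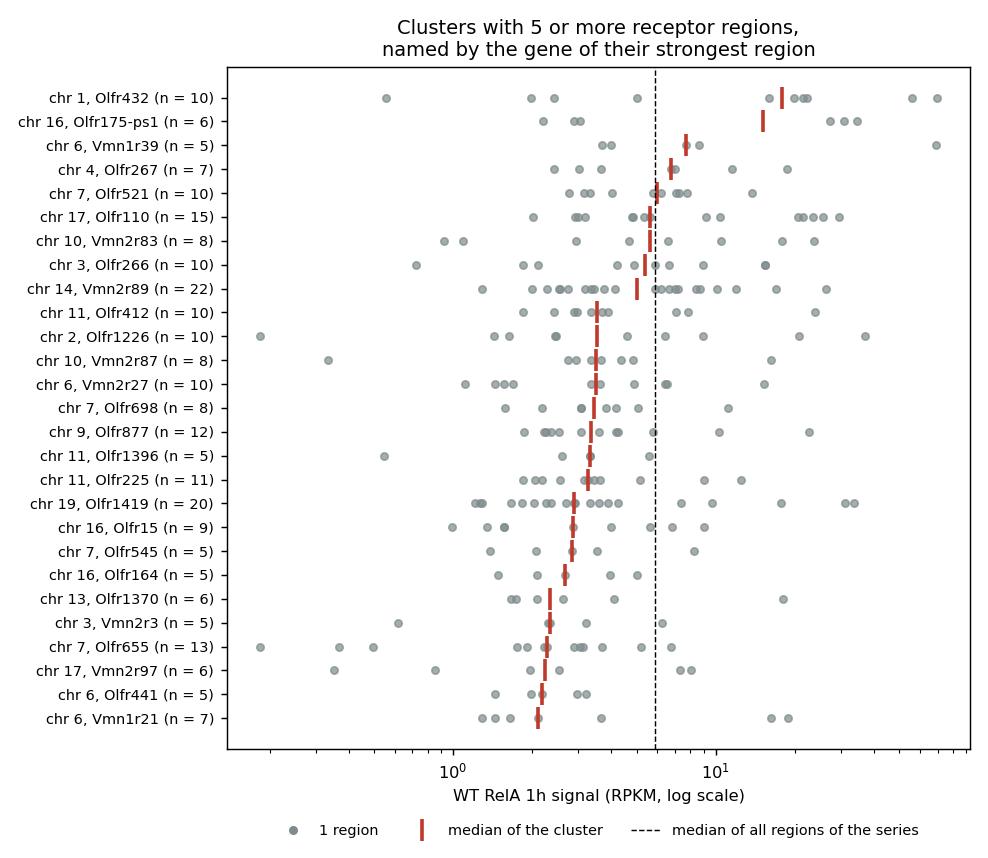
RelA signal in WT at 1 h (RPKM, log axis) at every region of the 27 clusters with 5 or more receptor regions, ordered by the cluster's median (red bar) and named by chromosome and by the gene of the strongest region. The dashed line is the median of all regions of the series, 5.89 RPKM; most cluster medians lie below it, and those of chromosome 1 (17.9 RPKM) and chromosome 16 (15.1 RPKM) lie far above.

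The run on chromosome 1 holds regions of 7 receptor genes and starts beside Ifi205, a gene of the interferon-inducible Ifi200 family. Its medians were 17.2 RPKM with RelA in RelBko and 17.9 in WT, 1.45 with RelB in RelBko and 24.4 in WT at 1 h, 2.05 and 19.9 at 0 h, and 0.923 in the input. The signal stood at the end beside Ifi205. The 5 regions of Olfr433 and Olfr432, the receptor genes nearest to Ifi205, had 16.0 to 69.4 RPKM of RelA signal in WT. Olfr231, farther along, had 19.8 RPKM, while the regions of Olfr429, Olfr424, Olfr420 and Olfr414 had 0.554, 5.02, 2.42 and 1.98 RPKM.

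The strongest member lay 2733 bp downstream of the start of Olfr432 (chr1:175983070-175983408, intergenic). It had 71.2 RPKM of RelA signal in RelBko and 69.4 in WT, 3.18 RPKM of RelB signal in RelBko and 90.0 in WT at 1 h, 5.90 and 93.5 at 0 h, and 1.12 RPKM in the input. The region at -1034 bp of Olfr433 (chr1:175970825-175971235) had 64.7 RPKM of RelA signal in RelBko and 56.2 in WT, 4.37 RPKM of RelB signal in RelBko and 67.9 in WT at 1 h, 7.24 and 47.9 at 0 h, and 2.03 RPKM in the input. Both stood high in the 4 libraries that have the ChIP target and low in the RelBko RelB libraries. The region at -43754 bp of Vmn1r39 (chr6:66798909-66799252), the vomeronasal receptor gene next to Gng12, which encodes a G protein gamma subunit, had 63.5 RPKM of RelA signal in RelBko and 69.2 in WT. Its RelB signal was 1.64 RPKM in RelBko and 48.7 in WT at 1 h, and 4.82 and 52.4 at 0 h, with 1.10 RPKM in the input.

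Olfr460 has Clec5a, an activating lectin receptor of myeloid cells, as its neighbour and carried 4 regions. At 5125 bp (chr6:40526328-40526697, annotated as a 3' UTR) RelA signal was 36.7 RPKM in RelBko and 41.3 in WT, and RelB signal was 2.22 RPKM in RelBko and 69.4 in WT at 1 h, and 6.18 and 51.6 at 0 h, with 1.23 RPKM in the input. At 2395 bp (chr6:40523608-40523957) RelA signal was 30.5 RPKM in RelBko and 29.2 in WT, and RelB signal was 2.93 and 42.5 at 1 h, and 5.72 and 33.8 at 0 h, with 0.867 in the input. The region over the start, whose upstream bases are shown above (chr6:40521231-40521598), was weaker, with 10.3 RPKM of RelA signal in RelBko and 9.89 in WT, and 0.976 and 15.1 RPKM of RelB signal at 1 h. The region at -5160 bp (chr6:40516055-40516399) had 11.4 RPKM of RelA signal in RelBko and 18.0 in WT, and 1.19 and 12.4 RPKM of RelB signal at 1 h. With RelA in WT the region over the start was thus the lowest of the 4, and the regions on either side of it were higher.

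Promoters of receptor genes with high signal were few. The region 377 bp before Olfr175-ps1 (chr16:58826790-58827139) had 43.9 RPKM of RelA signal in RelBko and 30.7 in WT. Its RelB signal was 2.34 RPKM in RelBko and 43.0 in WT at 1 h, and 5.72 and 38.1 at 0 h, with 1.08 in the input. The name of this gene marks a pseudogene, but it was among the protein-coding member genes counted above. A further region of the same gene at 4998 bp (chr16:58821402-58821777) had 38.4 RPKM of RelA signal in RelBko and 34.6 in WT. The region 367 bp before Olfr110 (chr17:37628878-37629215), which lies next to the class I-like gene H2-M2 in the major histocompatibility complex, had 24.1 RPKM of RelA signal in RelBko and 29.6 in WT, 2.12 RPKM of RelB signal in RelBko and 43.9 in WT at 1 h, and 5.92 and 43.9 at 0 h, with 0.897 in the input. Olfr111, the next receptor gene, had a region at -5168 bp (chr17:37661542-37661926) with 24.5 and 23.5 RPKM of RelA signal. Beside these, the promoter region of Olfr432 had 17.1 RPKM of RelA signal in RelBko and 16.0 in WT, that of Olfr520 had 3.86 and 6.17, and Olfr1509 had 5.08 and 7.22 at a region 940 bp from the start.

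High signal was not limited to cluster ends. The region at -8270 bp of Olfr1226 on chromosome 2 (chr2:89042280-89042638) lies 101 and 55 genes away from the nearest coding genes of another kind, Pramel6 and Ptprj, in the order of GRCm38. It had 40.9 RPKM of RelA signal in RelBko and 36.9 in WT, 4.14 RPKM of RelB signal in RelBko and 34.4 in WT at 1 h, 5.10 and 32.6 at 0 h, and 1.06 in the input. A region of 170 bp beside it (chr2:89041841-89042010) had 29.7 RPKM of RelA signal in RelBko and 20.7 in WT. The strongest Vmn2r regions were those of Vmn2r89 (chr14:52102751-52103123), with 19.2 RPKM of RelA signal in RelBko and 26.4 in WT, and of Vmn2r83 (chr10:78889012-78889378), with 18.2 and 23.7. After that of Vmn1r39, the strongest Vmn1r region was that of Vmn1r235 (chr17:21405647-21406015), with 12.9 RPKM of RelA signal in RelBko and 15.3 in WT.

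**Figure D3:**
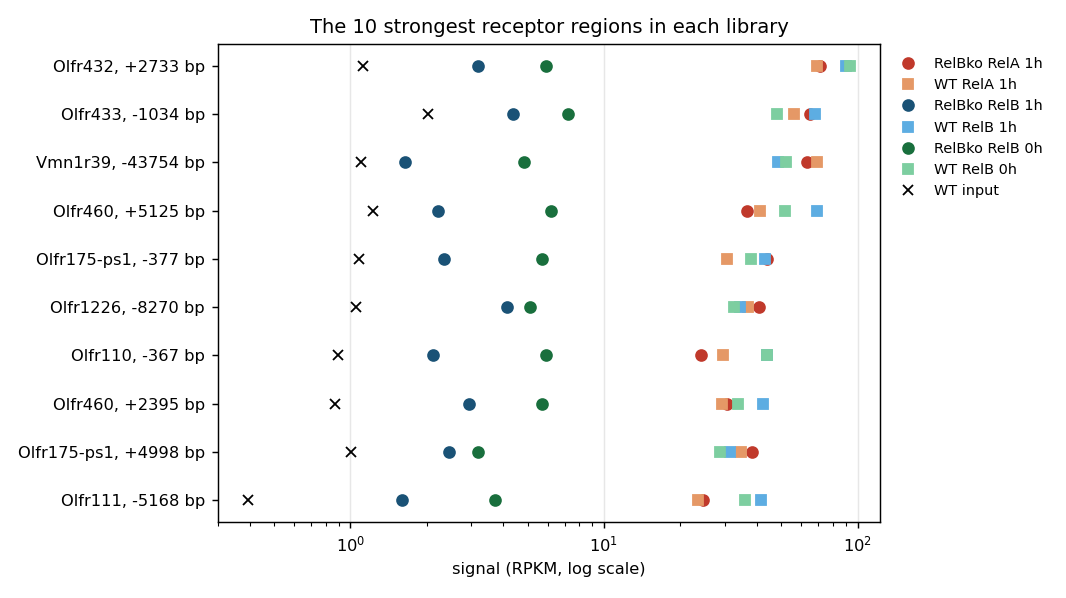
Signal in RPKM (log axis) of the 10 receptor regions with the highest mean over the 6 ChIP libraries, labelled by gene and distance to the start, in all 7 libraries. RelA in both genotypes and RelB in WT sit between 23.5 and 93.5 RPKM, RelB in RelBko between 1.60 and 7.24 RPKM, and the input between 0.394 and 2.03 RPKM.

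The 3 members with the highest input differed in how far their ChIP signal stood above it. Olfr922 had 3.07 RPKM in the input (chr9:38627729-38628271), and with 3.46 RPKM of RelA signal in RelBko, 4.19 in WT and 3.40 and 6.03 RPKM of RelB signal in RelBko and WT at 1 h it was enriched in no library. Olfr1423 had 2.66 RPKM in the input with 25.8 RPKM of RelA signal in RelBko and 31.1 in WT, and a region of Olfr432 at -1324 bp had 2.54 RPKM with 22.4 and 22.2. These stood far above their input.

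RelA signal at 1 h was compared between RelBko and WT to ask whether the loss of RelB went with a change of RelA at receptor genes. Of the 252 members enriched in at least 1 of both libraries, 7 were called higher in RelBko by 2-fold or more (2.78%, against 1.3% of all regions compared) and 18 lower (7.14%, against 4.94%). The median log2 ratio over all 316 members was -0.10 (0.933-fold), against -0.07 over all regions. Over the 253 intergenic members it was -0.05, against -0.11 over other intergenic regions within 100 kb. At the 10 strongest members the log2 ratio ran between -0.29 (Olfr110) and 0.51 (the promoter of Olfr175-ps1), with none called. The called members were weak: the higher library was at 2.04 to 7.82 RPKM for those higher in RelBko and at 2.09 to 8.27 RPKM for those lower.

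Among the regions higher in RelBko, that 12000 bp from Olfr66 (chr7:111018582-111018928), the receptor gene next to the embryonic globin gene Hbb-y, had 7.82 RPKM in RelBko (65 reads) and 3.11 RPKM in WT (19 reads), a ratio of 2.51 (exact 95% interval 1.49 to 4.44, counting error only here and below). Olfr1221 (chr2:88958671-88959027) had 4.09 RPKM in RelBko (35 reads) and 1.43 in WT (9 reads), a ratio of 2.86 (1.35 to 6.75). The largest ratio, singled out after its value was seen, was that of Vmn1r87, with 26 reads in RelBko and 1 in WT. Among those lower, Olfr1414 (chr1:94433475-94433909) had 1.44 RPKM in RelBko (15 reads) and 4.57 in WT (35 reads), a ratio of 0.315 (0.160 to 0.591). Olfr1394 (chr11:48970918-48971255) had 1.85 RPKM in RelBko (15 reads) and 5.55 in WT (33 reads), a ratio of 0.334 (0.168 to 0.632). Vmn2r19, Vmn2r25 and Vmn2r26, which lie in 1 run between Clec4e, a lectin receptor for microbial glycolipids, and Cd163, a scavenger receptor of macrophages, each had 1 region called lower; they were chosen after their values were seen. Their signal was 2.71 RPKM in RelBko and 6.54 in WT, 1.90 and 4.86, and 1.23 and 3.36.

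RelB ChIP at 1 h was compared between RelBko and WT to see how much of the members' signal depends on the target being present. Of 236 members compared, 217 were called lower in RelBko (91.9%, against 95.9% of all regions) and 5 higher (2.12%, against 0.128%). The median log2 ratio over all 316 members was -1.79, against -2.18 over all regions. Among compared regions alone it was -2.23 for members and -2.47 for all. When the median ratio of all compared regions was set to 1, a shift of 2.47, the median over all 316 members turned to 0.68. That shift was taken from filtered regions and the members' median was not filtered, so 0.68 is not a like-for-like difference from all regions. The members' summed reads gave a ratio of 0.131 (0.125 to 0.137) after scaling to library size, against 0.109 over all regions. A region could enter only if enriched in 1 of both libraries, and 231 members were enriched in WT but 17 in RelBko, so a high share of lower calls follows in part from the filter. The gaps were widest at strong members: Olfr433 at 1632 bp, with 0.745 RPKM in RelBko (5 reads) and 34.4 in WT (336 reads), was 46.1-fold lower in RelBko (19.6 to 143), Olfr460 at 5125 bp 31.3-fold (19.1 to 55.0), Vmn1r39 at -43754 bp 29.7-fold (16.4 to 59.9) and Olfr432 at 2733 bp 28.3-fold (18.4 to 46.0), while Olfr1226 was 8.30-fold lower (5.68 to 12.6). The 10 strongest members still had 1.60 to 4.37 RPKM of RelB signal in RelBko, against 0.394 to 2.03 RPKM in the input.

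All 5 members called higher in RelBko had a length of 168 bp, the shortest in the table, and none of the 309 members longer than 170 bp was called higher. Over all regions, 90 of the 98 called higher were 170 bp or shorter, although only 2096 of 93611 regions are that short. They were 2 regions of Olfr16, known as the receptor MOR23 for the fragrance lyral, and 1 each of Olfr353, Vmn1r2 and Olfr243. Their RelB signal was 3.05 to 6.72 RPKM in RelBko (10 to 22 reads) and 0.209 to 0.628 RPKM in WT (1 to 3 reads). For Vmn1r2 (chr4:3017843-3018010) the ratio was 10.7 (3.21 to 55.8), and for Olfr16 at 54578 bp (chr1:174941394-174941561) it was 24.8 (3.88 to 1036). In the RelA and input libraries these 5 regions were low, with 0.497 to 1.99 RPKM of RelA signal in RelBko, 0.338 to 3.05 in WT and at most 0.903 in the input. Their RelB signal at 0 h was 0.681 to 2.04 RPKM in RelBko and 0.340 to 1.19 in WT. The calls at 1 h therefore rest on very few reads of 1 library per genotype. Of the 5, the region of Olfr16 at -15580 bp was also called higher at 0 h, on 6 reads in RelBko and 3 in WT.

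At 0 h the same comparison without stimulation gave 187 of 217 members called lower in RelBko (86.2%, against 86% of all regions) and 2 higher (0.922%, against 0.504%). The median log2 ratio over all members was -1.41, against -1.54 over all regions. Among compared regions alone it was -1.79 for members and -1.85 for all. With a median ratio of 1 over all compared regions, a shift of 1.85, the unfiltered median of members turned to 0.44. As at 1 h, this sets unfiltered members against filtered regions. The largest log2 differences were at Vmn1r235, with 2.17 RPKM in RelBko (14 reads) and 38.7 in WT (501 reads), 17.8-fold lower (10.5 to 32.9), and Olfr432 (2733 bp), with 5.90 and 93.5 RPKM, 15.8-fold lower (11.3 to 22.8). The 2 members called higher were again of 168 and 170 bp, and were named after their values were seen. Olfr16 at -15580 bp, also called higher at 1 h, had 2.04 RPKM in RelBko (6 reads) and 0.509 in WT (3 reads). Vmn2r87 had 3.70 RPKM in RelBko (11 reads) and 0.839 in WT (5 reads). Over all regions, 297 of the 361 called higher were 170 bp or shorter.

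**Figure D4:**
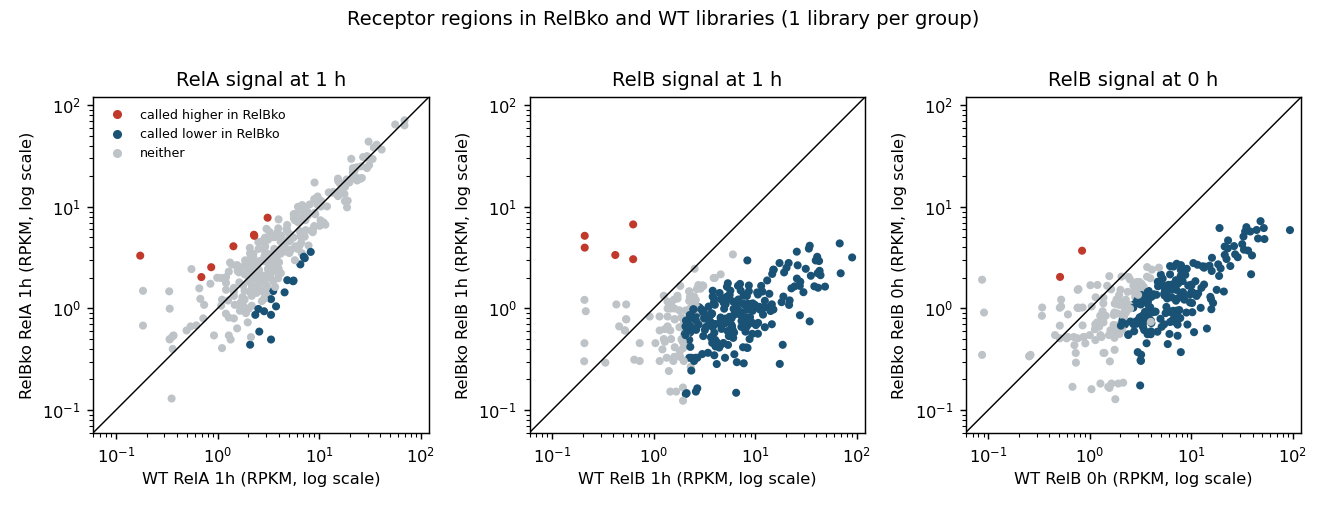
Signal of the 316 receptor regions in RelBko (vertical) against WT (horizontal), both in RPKM on log axes, for RelA at 1 h, RelB at 1 h and RelB at 0 h; the line marks equal signal. Red points were called higher in RelBko (7, 5 and 2), blue points lower (18, 217 and 187) and grey points neither or not compared.

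RelB signal in WT cells was compared between 1 h and 0 h to see whether LPS goes with a change at receptor genes. Of 250 members compared, 27 were called higher at 1 h (10.8%, against 11% of all regions) and 2 lower (0.8%, against 1.68%). The median log2 ratio over all members was 0.14, as over all regions, and 0.0040 with a median ratio of 1. Among the families, 11 of 42 compared Vmn2r regions were called higher (26.2%), against 15 of 192 Olfr regions (7.81%) and 1 of 16 Vmn1r regions. Much of this came from 1 locus of near copies, which may share reads: 7 of the 10 regions of the neighbouring genes Vmn2r88 and Vmn2r89 on chromosome 14 were called, with a median log2 ratio of 1.14. Without both genes 4 of 32 Vmn2r regions (12.5%) and 20 of 240 members (8.33%) were called higher.

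The largest ratio at that locus, at -13633 bp of Vmn2r89 (chr14:52057821-52058187), was 14.6 RPKM at 1 h (152 reads) against 3.03 at 0 h (39 reads), a ratio of 4.81 (3.36 to 7.02). At -21725 bp of Vmn2r88 (chr14:52008795-52009108), RelB signal was 12.4 RPKM at 1 h and 3.18 at 0 h. The strongest region of the locus, that at 31300 bp from Vmn2r89, was near level, with 24.4 RPKM at 1 h and 22.2 at 0 h. RelB signal of these 10 regions in RelBko was 0.591 to 1.67 RPKM at 1 h and 0.454 to 3.07 at 0 h. Vmn2r83 on chromosome 10 had the highest level among the called members, with 35.3 RPKM at 1 h (368 reads) and 11.7 at 0 h (150 reads), a ratio of 3.03 (2.50 to 3.68). Vmn2r19, next to Clec4e, had 6.07 RPKM at 1 h (69 reads) and 1.14 at 0 h (16 reads), a ratio of 5.32 (3.06 to 9.82).

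Calls were more frequent at edge genes than at inner genes, with 22 of 138 compared regions (15.9%) higher at 1 h against 5 of 112 (4.46%). Over all regions compared the share was 11%. Without Vmn2r88 and Vmn2r89, both of them edge genes, 15 of 128 (11.7%) were called at edge genes, against 4.46% of regions of inner genes. Edge genes were then near the share of all regions, and inner genes below it. The grouping by edge was chosen after values had been seen. Edge genes with such a region included Olfr222, next to the inflammasome gene Nlrp3, with 2.76 RPKM at 1 h and 0.773 at 0 h at its promoter, Olfr266, next to Cd53, with 10.4 and 3.67 RPKM, and Olfr66, with 6.59 and 1.56 RPKM. Olfr231, in the run on chromosome 1, had 22.7 RPKM at 1 h and 10.3 at 0 h. These 4 were chosen after their values were seen. The 2 members called lower were Vmn1r39 at -42019 bp (chr6:66797192-66797499), with 7.20 RPKM at 1 h (63 reads) and 15.4 at 0 h (166 reads), a ratio of 0.468 (0.345 to 0.629), and Olfr429. Olfr655 (chr7:111753340-111753710), with 7.59 RPKM at 1 h and 15.6 at 0 h, came just short of a call at a log2 ratio of -0.99.

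**Figure D5:**
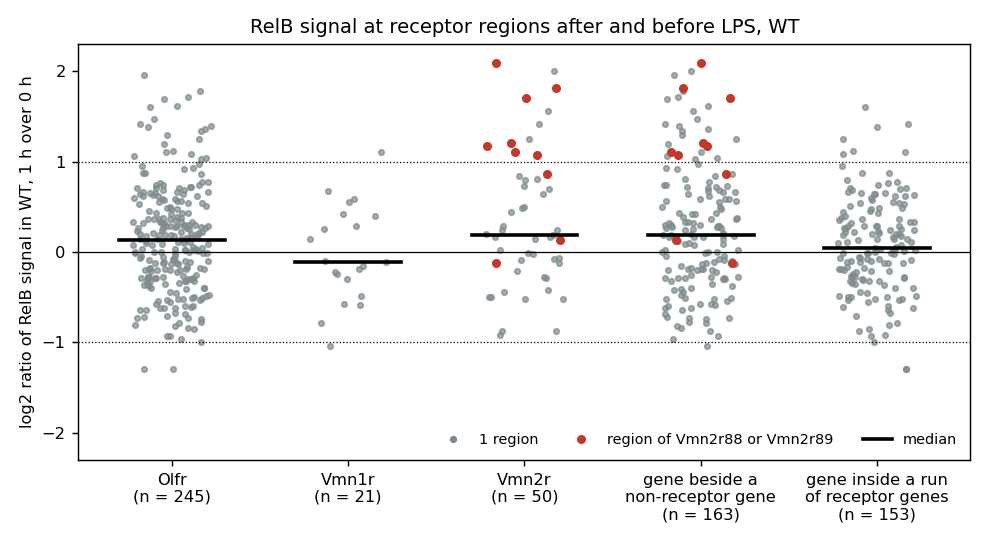
Log2 ratio of RelB signal in WT, 1 h over 0 h, with 0.5 RPKM added to both, for every receptor region by family and by the place of its gene at the edge or inside of a run of receptor genes. Black bars are medians, dotted lines mark 2-fold, and the 10 regions of Vmn2r88 and Vmn2r89 are in red, 7 of them above the upper line.

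RelA and RelB signal were set side by side in WT cells at 1 h. Of 264 members compared, 12 were called higher for RelA (4.55%, against 7.45% of all regions) and 22 lower (8.33%, against 7.21%). The median log2 ratio of RelA over RelB was -0.22 over all members, -0.15 over all regions and -0.06 over the members with a median ratio of 1; the antibodies differ, so the ratio is one of ChIP yields. Among the regions higher for RelA, the promoter of Olfr547 (chr7:109682258-109682628) had 8.27 RPKM of RelA (54 reads) and 1.61 of RelB (17 reads), a ratio of 5.13 (2.93 to 9.45), and Olfr1394 had 5.55 and 0.520 RPKM, a ratio of 10.7 (4.14 to 35.0). Both were also called lower in RelBko for RelA, a comparison that shares the WT RelA library. Among those lower, Olfr876 (chr9:37614875-37615239) had 1.87 RPKM of RelA (12 reads) and 9.35 of RelB (97 reads), a ratio of 0.200 (0.0999 to 0.365), and Olfr371 (chr8:87786501-87786820) had 2.13 and 9.45 RPKM, a ratio of 0.225 (0.112 to 0.414).

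In RelBko cells, where the RelB ChIP lacks its target, the 1 h and 0 h libraries were compared as well, a comparison added after the data had been seen. Only 44 members were enriched in either library; 16 were called lower at 1 h (36.4%, against 44.1% of all regions) and 4 higher (9.09%, against 0.863%). The 4 higher ones were regions of 168 bp described above, those of Olfr16 at 54578 bp, Olfr353, Vmn1r2 and Olfr243. Among the lower ones were several of the strongest members, such as the promoter of Olfr175-ps1 with 2.34 RPKM at 1 h and 5.72 at 0 h, that of Olfr110 with 2.12 and 5.92, and Vmn1r39 with 1.64 and 4.82. The median log2 ratio over all members was -0.27, against -0.43 over all regions. Among compared regions alone it was -0.66 for members and -0.93 for all. With a median ratio of 1 over all compared regions, a shift of 0.93, the unfiltered median of members turned to 0.66. Here too unfiltered members are set against filtered regions.

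Genes that work with these receptors were read beside them, from lists of olfactory and vomeronasal signalling genes, each gene at its strongest region. Of 23 genes of olfactory neurons 18 had a region, with a median of 11.2 RPKM of RelA signal in RelBko and 11.4 in WT. Each value is from the strongest of up to 11 regions of a gene. Medians of receptor members are over all their regions, so the levels are not like for like. The highest were transcriptional regulators that also act in other tissues: Lhx2, a homeodomain factor needed for receptor choice, had 28.5 and 21.2 RPKM, and its partner Ldb1 had 24.8 and 20.7. Genes of the odour response itself differed widely. Adcy3, the adenylyl cyclase, had 2.56 RPKM in RelBko and 3.15 in WT, and Cnga2, a subunit of the cyclic nucleotide-gated channel, had 2.96 and 2.90. Cngb1, a further subunit of that channel, had 17.8 RPKM in RelBko and 13.4 in WT, at a region 51711 bp from its start. Ano2, a calcium-activated chloride channel, had 15.8 and 16.4, and Slc24a4, a sodium-calcium exchanger, had 13.3 and 12.4. Omp, a marker of mature olfactory neurons, had 7.0 and 11.9. For RelA none of the 18 was called between RelBko and WT, against 1.3% higher and 4.94% lower of all regions. For RelB in RelBko against WT, 15 of 16 compared were lower at 1 h and 13 of 16 at 0 h, where 95.9% and 86% of all regions were. In WT, RelB at 1 h against 0 h was called higher at 2 of 17, Lhx2 (22.5 and 3.73 RPKM) and Ebf1, a further factor of these neurons (7.98 and 2.78), and lower at none. Over all regions compared, 11% were higher and 1.68% lower. RelA against RelB in WT was called higher at Ebf2 and Ebf4 and lower at Slc24a4, of 18 compared, against 7.45% higher and 7.21% lower of all regions.

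Of the 4 vomeronasal signalling genes 3 had a region. Gnai2, a G protein subunit that immune cells also use, had 39.0 RPKM of RelA signal in RelBko and 47.6 in WT, Gng8 had 3.65 and 9.0, and Gnao1 had 2.45 and 2.84. Gng8 was called lower in RelBko for RelA, as were 4.94% of all regions compared. RelB was called lower in RelBko at both of the 2 genes compared at each time, where 95.9% (1 h) and 86% (0 h) of all regions were. In WT, RelB was called higher at 1 h than at 0 h at Gnai2 (46.6 and 15.3 RPKM), against 11% of all regions. RelA was called higher than RelB at Gnao1, against 7.45% of all regions. The 9 dendritic cell markers all had a region, with medians of 64.2 RPKM of RelA signal in RelBko and 62.0 in WT, and 3.86 RPKM of RelB signal in RelBko and 81.1 in WT at 1 h. Zbtb46, a transcription factor of classical dendritic cells, had 83.7 and 76.8 RPKM of RelA signal, and Itgax, which encodes CD11c, had 59.7 and 59.9. No marker was called for RelA between RelBko and WT, and all 9 were lower for RelB in RelBko at both times. In WT, RelB was called lower at 1 h than at 0 h at Cd74 and Spi1, against 1.68% of all regions. RelA was called lower than RelB at Ccr7, against 7.21% of all regions. Each marker was read at the strongest of its 4 (Spi1) to 19 (Irf8) regions, so its level is not like for like with medians over all member regions. ChIP signal near a gene is not its expression, so the label of the cells was checked only in this sense.

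Regions kept much of their order between libraries. Across the 316 members Spearman's rho was 0.85 between RelA in RelBko and in WT (0.93 over all regions), 0.87 between RelB in WT at 1 h and 0 h (0.91), and 0.81 between RelA and RelB in WT at 1 h (0.88). For RelB between RelBko and WT it was 0.42 at 1 h (0.62 over all regions) and 0.58 at 0 h (0.70), and between the ChIP libraries and the input it lay between 0.20 and 0.32 (0.37 to 0.46). These are descriptions across regions of the same cells, which share length, mappability and the same few libraries, and members have few reads in the RelBko RelB and input libraries.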

How the data were processed

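RPKM values were calculated by the authors, per the file headers, over 93611 regions for 6 ChIP libraries and 1 input, with each region's class, nearest gene and distance to the TSS. HISAT2, HOMER and bedtools, and the build mm9, are listed in the submitters' processing notes without versions or roles, and no source used here gives the choice of regions. Each sample's antibody was taken from its own label. Starts were counted from 0 and are printed with 1 added. RPKM times length was a whole multiple of 1 read in 100% of values (within 0.01 read), which gave read numbers and library totals; a read added to every value by the authors is possible, and 1 read was taken off as an alternative.

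Log2 ratios used a pseudocount of 0.5 RPKM and understate differences of low regions. Medians were taken over all members without a filter. Intervals are exact 95% ones (Poisson or Clopper-Pearson), and allow for counting error alone: without molecular identifiers, reads may be copies of 1 molecule. Named regions were the 10 strongest, the 6 strongest enriched within 1 kb of a TSS, the 2 with the largest log2 ratio in each comparison and direction at 4 RPKM or more, the 3 with the highest input, the 2 strongest Vmn1r and Vmn2r regions, the 3 genes with the most regions and the 5 largest clusters; others are marked as chosen after their values were seen. Members and lists were chosen with earlier results of these data known. Python 3.11.15, NumPy 2.4.6, pandas 2.3.3, SciPy 1.17.1 and Matplotlib 3.10.9 were used, and the calculation was tested on simulated data.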

Additional observations from a re-analysis of the deposited data

Results flagged for a closer look

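RelB signal at receptor regions moved in opposite directions with time in the 2 genotypes: the median log2 ratio of 1 h over 0 h across the 316 regions was -0.27 in RelBko and 0.14 in WT. Each value rests on 1 library per time, and the difference between the genotypes was not tested. With a median ratio of 1 over all regions compared, the values were 0.66 in RelBko and 0.0040 in WT. That scaling was taken from filtered regions, while these medians are over all 316 members. Among compared regions alone the RelBko median was -0.66 for members and -0.93 for all. Over all 93611 regions the medians were -0.43 in RelBko and 0.14 in WT.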

How the results depend on the processing

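No replicate could be left out and no result comes from a test. No paired analysis was possible because each group holds 1 library. Depth limits the weak regions: 62 and 48 members in the RelBko RelB libraries at 1 h and 0 h, 5 to 15 in the other ChIP libraries and 147 in the input had 3 reads or fewer. Of the counts recomputed under an alternative, 59 stayed within 1.5 times the reported one and 49 did not. Counts here are given as higher and lower, and settings with fewer regions (10 kb, 1 region per gene) give smaller counts by construction.

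With the median ratio of all compared regions set to 1, RelB in RelBko against WT had 53 higher and 27 lower at 1 h, and 21 and 24 at 0 h, RelB in WT at 1 h against 0 h had 6 lower, RelA against RelB had 14 lower, and RelB in RelBko at 1 h against 0 h had 10 and 2. The members' median log2 ratio reversed to 0.68 and 0.44 for RelB in RelBko against WT at 1 h and 0 h, and to 0.66 in RelBko at 1 h against 0 h. These medians are over all members, while the shift was taken from regions enriched in at least 1 of both libraries. They are therefore not like-for-like differences between members and all regions. In RelBko against WT at 1 h the ratio also reversed at Vmn1r39 (-42019 bp; 0.52), Olfr1509 (0.11) and Olfr1221 (1.44), and at 0 h at Olfr1423 (0.31), Vmn2r89 (-13633 bp; 0.39), Olfr1509 (0.44), Olfr876 (0.011) and Olfr371 (0.31). This scaling moves all regions by the same amount (log2 2.47 at 1 h and 1.85 at 0 h), which is the cause by construction. Scaling on regions without enrichment gave 4 lower for RelB in WT at 1 h against 0 h.

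A pseudocount of 1 RPKM gave 3 higher and 11 lower for RelA in RelBko against WT, 1 lower for RelB in WT at 1 h against 0 h, and 9 lower in RelBko. Without the filter, RelB in RelBko against WT at 0 h had 4 higher, and RelB in RelBko at 1 h against 0 h had 9 higher and 42 lower. With 1 read taken off, 1 member was higher for RelB in RelBko at 0 h. Within 10 kb of the start, RelBko against WT had 4 and 8 for RelA, 2 and 106 for RelB at 1 h and 0 and 96 at 0 h; RelB at 1 h against 0 h had 2 and 8 in RelBko and 7 and 1 in WT, and RelA against RelB had 6 and 11. With 1 region per gene, RelB in RelBko against WT had 3 and 116 at 1 h and 0 and 104 at 0 h, RelB at 1 h against 0 h had 8 lower in RelBko and 12 and 1 in WT, and RelA against RelB had 11 lower. The causes of the changes with the pseudocount and the filter were not tested.

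Enriched members within 10 kb numbered 93 with RelA in RelBko and 111 in WT, 10 and 116 with RelB at 1 h, and 20 and 108 at 0 h. At 4 RPKM and 4-fold they numbered 100 and 102 with RelA, 2 and 129 with RelB at 1 h, and 5 and 115 at 0 h.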
